A study of Homo sapiens with 6 samples.

Results

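The transcripts described here are the noncoding host genes of small nucleolar RNAs (snoRNAs). The rule for membership uses gene symbols and no measured value. It takes every counted gene whose GENCODE 29 symbol is SNHG followed by a number, with GAS5, ZFAS1, DANCR and EPB41L4A-AS1 added. This gave 29 gene entries of 58721 in the table, under 28 symbols, since SNHG28 has separate protein-coding and lincRNA entries. RNA was sequenced from 6 libraries of HEK293T, an established human embryonic kidney line. 3 libraries were labelled wild type. The other 3 came from cells in which ALKBH5 and FTO had both been knocked out with CRISPR/Cas9. The products of these genes remove N6-methyladenosine from RNA. Cleared Triton lysates made with cycloheximide supplied the RNA, which the design text calls cytoplasmic, and rRNA was depleted without poly(A) selection. The replicates were independent biological replicates. The wild type columns are headed HEK293G6, a name the labels do not explain, and the number of knockout clones is not stated, so the knockout and a difference between cell lines cannot be told apart.

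Most vertebrate snoRNAs are not transcribed from promoters of their own. They lie in introns of host genes, and after splicing the excised intron is trimmed down to the snoRNA. Box C/D snoRNAs guide 2′-O-methylation and box H/ACA snoRNAs guide pseudouridylation of rRNA and snRNA, while scaRNAs act in Cajal bodies. In the noncoding hosts the spliced exons make no known long protein. Many of these spliced RNAs are exported, engaged by ribosomes and degraded by nonsense-mediated decay (NMD), a pathway that removes RNAs with an early stop codon. Many host genes also begin with a terminal oligopyrimidine (TOP) tract, a run of C and T at the first base that they share with ribosomal protein genes.

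The start regions of some of the members described below are shown first. They are shown because the TOP tract is the feature that this gene class is known to share. Each line gives 30 bases before and 30 bases from the RefSeq start (GRCh38.p14), 5′ to 3′. Capitals mark the longest unbroken run of C and T that touches the bases within 3 of the start, where the run has at least 5 bases.
SNHG1 (chr11:62855856-62855915, minus strand): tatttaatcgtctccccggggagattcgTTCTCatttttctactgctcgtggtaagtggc
SNHG5 (chr6:85678704-85678763, minus strand): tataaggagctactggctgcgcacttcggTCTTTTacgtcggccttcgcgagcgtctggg
SNHG8 (chr4:118278732-118278791, plus strand): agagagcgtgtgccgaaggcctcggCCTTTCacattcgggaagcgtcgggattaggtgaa
SNHG16 (chr17:76557734-76557793, plus strand): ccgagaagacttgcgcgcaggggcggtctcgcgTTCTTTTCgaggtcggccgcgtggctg
SNHG17 (chr20:38435299-38435358, minus strand): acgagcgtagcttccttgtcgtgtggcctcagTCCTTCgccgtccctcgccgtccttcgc
ZFAS1 (chr20:49278612-49278671, plus strand): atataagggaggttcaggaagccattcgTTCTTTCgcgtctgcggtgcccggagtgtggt
DANCR (chr4:52712364-52712423, plus strand): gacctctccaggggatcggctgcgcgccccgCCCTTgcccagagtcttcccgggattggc
SNHG7 (chr9:136728155-136728214, minus strand): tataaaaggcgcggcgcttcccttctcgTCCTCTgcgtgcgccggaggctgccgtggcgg
SNHG12 (chr1:28581844-28581903, minus strand): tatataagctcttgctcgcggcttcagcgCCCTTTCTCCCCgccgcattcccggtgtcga
SNHG11 (chr20:38446624-38446683, plus strand): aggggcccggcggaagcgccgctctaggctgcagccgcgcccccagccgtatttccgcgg
Such a run was present in 11 of the 17 tested members with a RefSeq promoter sequence (64.7%), against 29% of 35116 RefSeq promoters and 77.9% of 77 ribosomal protein promoters. By call in the comparison below, it was present in 7 of 9 members that were lower, 2 of 3 that were higher and 2 of 5 that did not pass. The runs in the list range from 5 bases in SNHG1 and DANCR to 12 in SNHG12, and SNHG11 has none. RefSeq and GENCODE place the outer start at most 76 bases apart in these tested members, except GAS5 (163 bases), ZFAS1 (464) and SNHG12 (1259). The RefSeq window of GAS5, which is known as a TOP gene, had no run of 5. Those of EPB41L4A-AS1 and SNHG22, also described below, had none either. These windows are not printed, so the list holds more runs than the tested members as a whole.

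The snoRNAs themselves are shown by SNHG1, the host of the U22 snoRNA, because their position decides what a host count holds. SNORD25, SNORD27 and SNORD30 are printed from GENCODE 29 (hg38, minus strand), with box C (TGATGA) and box D (the last CTGA) in capitals.
SNORD25 (chr11:62855564-62855632): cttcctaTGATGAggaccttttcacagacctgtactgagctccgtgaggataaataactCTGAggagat
SNORD27 (chr11:62855012-62855083): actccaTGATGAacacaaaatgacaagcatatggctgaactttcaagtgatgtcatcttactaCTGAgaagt
SNORD30 (chr11:62853663-62853732): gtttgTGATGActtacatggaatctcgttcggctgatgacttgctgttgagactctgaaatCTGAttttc
On the transcribed strand, TGATGA occurred in 3 and CTGA in 7 of the 7 snoRNA genes within SNHG1. Over all GENCODE snoRNAs named SNORD, 77.3% of 278 held TGATGA and 98.2% held CTGA, against 3.4% and 47.6% of 147 named SNORA.

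The deposited counts hold the host and not these inner RNAs. All 137 snoRNA and scaRNA genes that lie within members on the same strand had 0 counts in all 6 libraries and could not be tested. The same held for every gene of the table wholly covered by other genes of its strand: 0 of 8673 had a count, among them 626 protein-coding genes. Of 9765 genes covered only on the opposite strand, 37.1% had a count, as had 47.4% of 23391 genes that no other gene covers. This is the pattern of reads assigned by strand to whole gene spans, introns included, with reads in the span of more than 1 gene left out. It is read from the values, since the counting settings were not given. A 0 of an inner snoRNA is no measure of its level, and a host count can include reads from introns outside the snoRNAs.

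**Figure D1:**
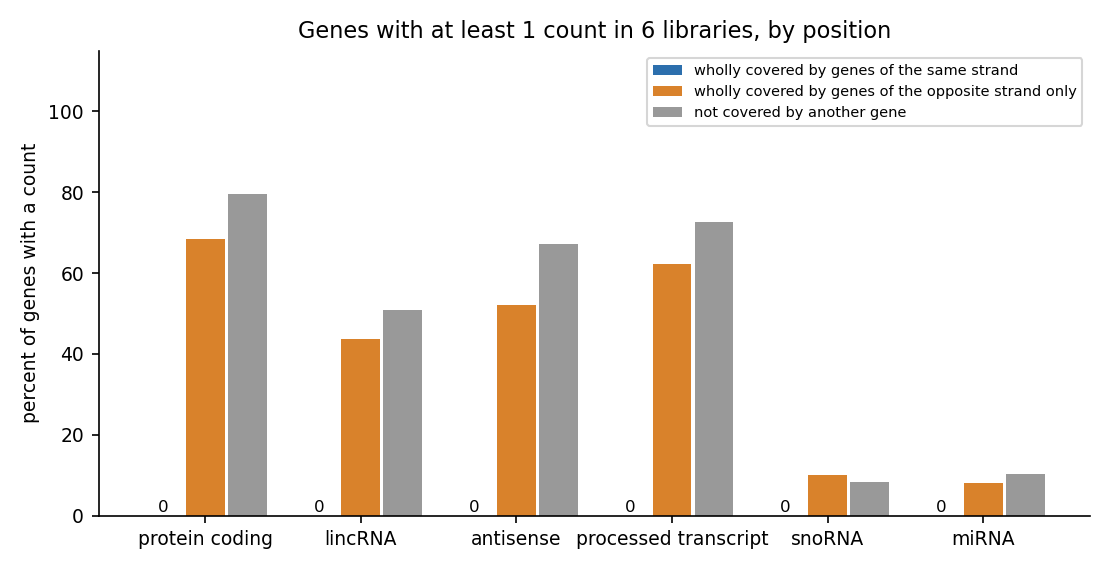
Bars give the percent of genes (y axis) with at least 1 count over the 6 libraries for 6 GENCODE gene types (x axis), split by whether other genes cover the whole span. Genes covered on their own strand are at 0 in every type shown, while those covered only on the opposite strand are at 8.12% (miRNA) to 68.5% (protein coding).

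GAS5 is the exception with the largest content. RefSeq lists 11 snoRNAs within GAS5, 10 of them box C/D RNAs from SNORD74 to SNORD81 with SNORD44 and SNORD47, and none has a gene of its own in GENCODE 29. Reads from these snoRNAs fall within the counted span of GAS5. SNHG1 holds 2 more such RNAs (SNORD29 and SNORD31) and SNHG5 holds SNORD50A, so 14 in 3 members in all. How much of these host counts comes from the snoRNAs was not tested.

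Each library held 5634648 to 7551825 counts in genes. FTO stood at 96.5 to 112 CPM (the usual unit of counts scaled to library size, here with TMM factors) in wild type and 53.6 to 61.0 CPM in the double knockout, and ALKBH5 at 235 to 256 and 186 to 187 CPM, so both targeted transcripts were lower but present. Of 10 markers of the HEK293T line, all were measured, 9 rose and 1 fell, with sums of 1258 to 1328 CPM in wild type and 1713 to 1727 CPM in double knockout. Summed markers of fibroblasts (6 genes) stood at 16.7 to 19.7 and 10.3 to 12.3 CPM, with COL1A2 at 0 in all libraries. Those of haematopoietic, endothelial and hepatic cells stayed at or under 2.62 CPM in every library, with CD3E, HBB and HBG1 at 0. MALAT1 and NEAT1, which stay in the nucleus, summed to 1673 to 1735 CPM in wild type and 1621 to 1718 CPM in double knockout. The part of these shifts in the results was not tested.

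The comparison asked whether host levels differed between wild type cells and the double knockout cells. The hosts were mostly lower in the double knockout. Of the 29 members, 21 passed the low-count filter, and of these 11 fell, 4 rose and 6 did not pass (edgeR quasi-likelihood test, adjusted p under 0.05). Among all 14180 tested genes 28.5% fell and 28.6% rose, 57.1% in all, so the members' share of falls (52.4%) was above the background and their share of rises (19.0%) below it. The median log2 fold change was -0.15 over the tested members and 0.01 over all tested genes. The members' median was -0.0829 without double knockout replicate 1 and -0.0756 after subtraction of the nearest genes' median. With total gene counts it was -0.0931, but the median of all genes then moved up to 0.06. Without wild type replicate 1 the rises numbered 2. With scaling to the spike-in RNAs, which moved the median of all genes to -0.10, 11 members fell and 1 rose. Over all genes, 4236 fell and 2133 rose in place of 4038 and 4055. This scaling rests on few reads, 285 to 384 of the GFP spike-in and 31 to 64 of the luciferase (fLuc) spike-in per library. Double knockout replicate 2 had the most GFP reads (384, against 312 and 313 in double knockout replicates 1 and 3). Summed over all members, the level was 2141 to 2228 CPM in wild type and 1893 to 1956 CPM in double knockout, and the groups did not overlap. Bulk counts do not tell less RNA per cell from fewer cells that make it.

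**Figure D2:**
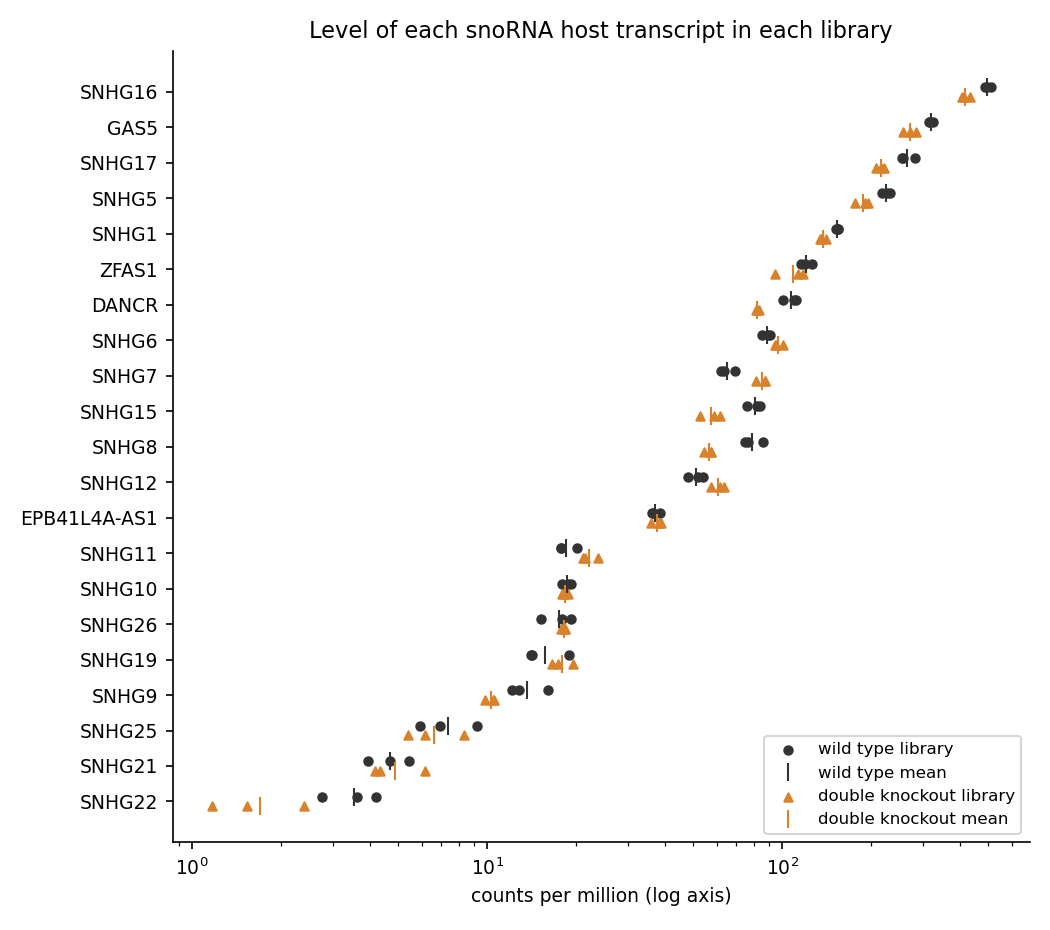
Points give the level of each tested member in each library (x axis, CPM, log axis), with circles for wild type, triangles for double knockout and a vertical tick for the mean of 3 libraries. Double knockout libraries lie left of all wild type libraries for SNHG16, GAS5, SNHG17, SNHG5, SNHG1 and DANCR, among others, and to the right for SNHG7, SNHG6, SNHG12 and SNHG11.

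The changes were small. Called sizes ran from 0.13 (SNHG6) to 0.49 (SNHG15) on the log2 scale, apart from the scarce SNHG22. The common estimate of variation between replicates, beyond counting error, was 2.4%. The p-values measure the spread among these libraries and not a spread among cell clones, whose number is not stated. In 14 of the 21 tested members the libraries of the groups did not overlap, against 60.6% of all tested genes. The double knockout lay below in 10 of them and above in 4, while over all genes each direction made up 30.3%. Of the 15 called members, 10 kept direction and call under each alternative test, scaling, filter and left-out library in which they were tested (14 for SNHG22 and 15 for the others): SNHG1, GAS5, SNHG16, SNHG5, SNHG17, DANCR, SNHG8, SNHG15 and SNHG22 among the falls, and SNHG7 among the rises.

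Among hosts of box C/D snoRNAs, SNHG16, which carries the SNORD1 family on chromosome 17 (76557766 to 76565348, hg38), had the highest level. It stood at 494, 510 and 486 CPM (wild type replicates 1 to 3) against 407, 434 and 415 CPM (double knockout). All double knockout libraries lay below all wild type libraries. On the log2 scale SNHG16 fell by 0.25 (edgeR, SE 0.03, adjusted p = 1.37e-13). Its mean went from 496 ± 12.4 to 419 ± 14.1 CPM (SD, n = 3 each).

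GAS5, named for its rise in growth-arrested cells and known as a target of NMD, lies on chromosome 1 (173863900 to 173868882). It reached 317, 314 and 324 CPM (wild type) against 272, 284 and 258 CPM (double knockout), with no overlap. GAS5 fell by 0.23 (SE 0.03, adjusted p = 4.65e-10). Its mean moved from 319 ± 5.18 to 271 ± 13.0 CPM. Its count can hold reads of inner snoRNAs, as can those of SNHG1 and SNHG5, described next.

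SNHG5, the host of the U50 snoRNAs on chromosome 6 (85660950 to 85678748), reached 218, 227 and 232 CPM (wild type) against 177, 196 and 191 CPM (double knockout). It fell by 0.26 (SE 0.04, adjusted p = 2.88e-10), again without overlap. SNHG1, whose snoRNAs are printed above (chromosome 11, 62851988 to 62855914), reached 155, 155 and 152 CPM (wild type) against 141, 134 and 136 CPM (double knockout). The fall of SNHG1 was 0.17 in size (log2 fold change -0.17, SE 0.04, adjusted p = 3.07e-04).

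ZFAS1, which starts beside ZNFX1 and carries the SNORD12 family (chromosome 20, 49278178 to 49295738), was the least stable of the falls. It reached 120, 116 and 126 CPM (wild type) against 94.6, 113 and 118 CPM (double knockout). Replicate 1 of the double knockout stood apart from the others, and replicate 3 overlapped wild type. ZFAS1 fell by 0.15 (SE 0.05, adjusted p = 0.00698), but without double knockout replicate 1 its log2 fold change was -0.06 (adjusted p = 0.301), with DESeq2 on the same filtered genes the adjusted p was 0.0879 (0.190 without the filter), and with total gene counts it was 0.0839.

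The falls among hosts of H/ACA snoRNAs alone ran from 0.30 to 0.49. SNHG17, with 4 SNORA71 copies in its introns (chromosome 20, 38420588 to 38435353), reached 257, 281 and 255 CPM (wild type) against 216, 222 and 209 CPM (double knockout). It fell by 0.30 (SE 0.04, adjusted p = 5.26e-14). The groups did not overlap.

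DANCR, described as an antagonist of cell differentiation and the host of SNORA26 (chromosome 4, 52712404 to 52720351), reached 101, 112 and 110 CPM in wild type libraries. In double knockout it had 82.3, 81.4 and 83.5 CPM. It fell by 0.38 (SE 0.05, adjusted p = 5.00e-12). Its mean moved from 108 ± 6.03 to 82.4 ± 1.06 CPM (SD, n = 3 each). The double knockout libraries of DANCR lay closer together than those of wild type.

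SNHG8, the host of SNORA24 (chromosome 4, 118278709 to 118279823), reached 74.7, 86.1 and 76.4 CPM (wild type) against 54.3, 57.6 and 57.6 CPM (double knockout). It fell by 0.49 (SE 0.06, adjusted p = 4.18e-14). Its mean moved from 79.1 ± 6.15 to 56.5 ± 1.91 CPM. SNHG15, the host of SNORA9 on chromosome 7 (44983023 to 44986961), reached 76.0, 84.5 and 82.2 CPM (wild type) against 61.4, 52.6 and 58.7 CPM (double knockout). It fell by 0.49 as well (SE 0.06, adjusted p = 1.86e-14). In neither gene did the groups overlap.

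SNHG9, a short gene with SNORA78 next to RPS2 on chromosome 16 (1964959 to 1965509), reached 12.8, 16.02 and 12.2 CPM (wild type) against 10.5, 9.85 and 10.6 CPM (double knockout). It fell by 0.42 (SE 0.14, adjusted p = 0.00571). Wild type replicate 2 was the highest library, and without it the log2 fold change was -0.29 (adjusted p = 0.116). With DESeq2 on the same filtered genes the adjusted p was 0.0693 (0.0532 without the filter). SNHG22, the host of SCARNA17 within the antisense strand of MYO5B, was the one member past 2-fold. Its 3 wild type libraries held 71 counts together, against 32 with the double knockout. Its whole span (100%) is covered by genes of the opposite strand, so these few counts rest on the strand of the reads. SNHG22 fell by 1.04 (SE 0.31, adjusted p = 0.00208). It is named although it lies under 10 CPM, a choice made after its value was seen. The value was under 2-fold with total gene counts (-0.99) and without wild type replicate 2 (-0.88) or double knockout replicate 1 (-0.84) or 2 (-0.97). Falls of at least 2-fold made up 1.37% of all tested genes and rises of that size 4.63%, and no member rose that far.

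Of the 4 members that rose, SNHG7 rose most. It carries SNORA17 copies on chromosome 9 (136721366 to 136728184) and reached 62.3, 63.4 and 69.2 CPM (wild type) against 87.6, 87.3 and 81.3 CPM (double knockout). SNHG7 rose by 0.40 (SE 0.06, adjusted p = 5.37e-11). Its mean moved from 65.0 ± 3.69 to 85.4 ± 3.55 CPM (SD, n = 3 each). Its groups were well apart.

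SNHG12, which carries both SNORD99 and H/ACA snoRNAs on chromosome 1 (28578538 to 28583132), reached 51.7, 53.8 and 47.9 CPM (wild type) against 63.6, 61.6 and 57.3 CPM (double knockout). It rose by 0.24 (SE 0.07, adjusted p = 6.71e-04), and with spike-in scaling the value was 0.14 (adjusted p = 0.296). SNHG6, the host of SNORD87 on chromosome 8 (66921684 to 66926398), reached 85.2, 89.6 and 91.3 CPM (wild type) against 100.4, 95.0 and 95.2 CPM (double knockout). It rose by 0.13 (SE 0.05, adjusted p = 0.0263). This call was lost without wild type replicate 1 (0.09, adjusted p = 0.177) or double knockout replicate 1 (0.10, adjusted p = 0.145). It was also lost without the low-count filter (adjusted p = 0.0937) and with spike-in scaling (0.878). With DESeq2 it was lost on the filtered genes (adjusted p = 0.136) and without the filter.

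SNHG11 on chromosome 20 (38446578 to 38450921) reached 17.7, 17.8 and 20.2 CPM (wild type) against 21.5, 21.1 and 23.7 CPM (double knockout). It rose by 0.26 (SE 0.11, adjusted p = 0.0267). The call was lost without wild type replicate 1 (adjusted p = 0.108), wild type replicate 2 (0.102) or double knockout replicate 3 (0.137). It was also lost without the low-count filter (adjusted p = 0.0770) and with spike-in scaling (0.391). With DESeq2 it was lost on the filtered genes (adjusted p = 0.147) and without the filter (0.167). SNHG11 and SNHG17 are neighbours, 11224 bases apart and transcribed away from each other, and both carry SNORA71 copies. Their values moved in opposite directions, 0.26 and -0.30 on the log2 scale. The difference between these genes was not tested.

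The 6 tested members that did not pass had log2 fold changes between -0.12 and 0.21, and in all of them the groups overlapped. EPB41L4A-AS1, the host of SNORA13, reached 36.2, 38.7 and 36.5 CPM (wild type) against 38.8, 36.0 and 38.4 CPM (double knockout) (log2 fold change 0.02, SE 0.08, adjusted p = 0.843). Its whole span lies opposite to EPB41L4A, so it rests on the strand of the reads. SNHG10 (-0.02), SNHG26 (0.07), SNHG21 (0.09), SNHG25 (-0.12) and SNHG19 (0.21, SE 0.12, adjusted p = 0.109) were the others. SNHG19 passed without wild type replicate 3, at 0.34 (adjusted p = 0.0208), and with total gene counts, at 0.27 (adjusted p = 0.0419).

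The other 8 entries did not pass the low-count filter, for different reasons. SNHG3, SNHG4 and the lincRNA entry of SNHG28 lie wholly within genes of the same strand (with RCC1 over SNHG3 and MATR3 over SNHG4) and could receive no count. In SNHG20, 84.6% of the span is shared in this way, and it had 5 counts in all. The protein-coding entry of SNHG28, with 74.8% shared, had 4. SNHG18 and SNHG27 are not covered and had 0 counts, which allows up to 0.407 to 0.545 CPM per library. SNHG14, the long imprinted transcript with the SNORD115 and SNORD116 arrays, had 3 counts in wild type and 14 in the double knockout, 10 of these in replicate 3.

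Per kilobase of annotated exon, wild type levels were highest for SNHG16 (92.6 ± 2.30 CPM per kb, SD, n = 3), GAS5 (87.8 ± 1.43), SNHG8 (85.7 ± 6.67) and SNHG5 (80.4 ± 2.51). SNHG8 did not differ beyond its spread from its neighbours in this order. SNHG6 (71.2 ± 2.51), SNHG17 (63.2 ± 3.52), ZFAS1 (53.8 ± 2.30) and DANCR (47.1 ± 2.64) followed. SNHG22 was the lowest tested member at 1.36 ± 0.28. Since introns were counted too, the order depends on the length used. Per kilobase of span not shared with a gene of the same strand, SNHG8 (80.3), SNHG16 (67.6) and GAS5 (64.0) led, and ZFAS1 stood at 7.13. The double knockout order by exon length began with SNHG16 (78.1 ± 2.63), SNHG6 (77.7 ± 2.47) and GAS5 (74.7 ± 3.59), and these did not differ beyond their spread.

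Since neighbouring genes can share a shift, each member was set beside the median of its 50 nearest tested genes that are no members. These genes spanned from 1.16 megabases at SNHG19 to 24.2 megabases at SNHG15, so the medians are not equally local. Over the 21 tested members, 12 lay below that median, and the median difference was -0.08. Of the 11 members that fell, 10 lay below it, and of the 4 that rose, 3 lay above it. These counts by call follow in part from sorting the members by the sign of their own change. SNHG8 and SNHG7 moved with their surroundings. The neighbours of SNHG8 had a median of -0.56, with 35 of 50 lower, and SNHG8 lay 0.07 above it. The neighbours of SNHG7 had a median of 0.48, with 44 of 50 higher, and SNHG7 differed from it by -0.08.

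Other members lay away from the median of their surroundings. SNHG16 (neighbours 0.15, difference -0.40), SNHG17 (0.05, -0.34), SNHG1 (0.12, -0.29), SNHG9 (0.14, -0.57) and ZFAS1 (0.06, -0.20) lay in stretches whose median was above 0. DANCR (neighbours -0.15, difference -0.23), SNHG15 (-0.25, -0.24), GAS5 (-0.09, -0.14) and SNHG5 (-0.08, -0.18) lay below stretches that were themselves lower. SNHG26, which did not pass, differed from its neighbours (-0.31) by 0.38. These differences carry no test.

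**Figure D3:**
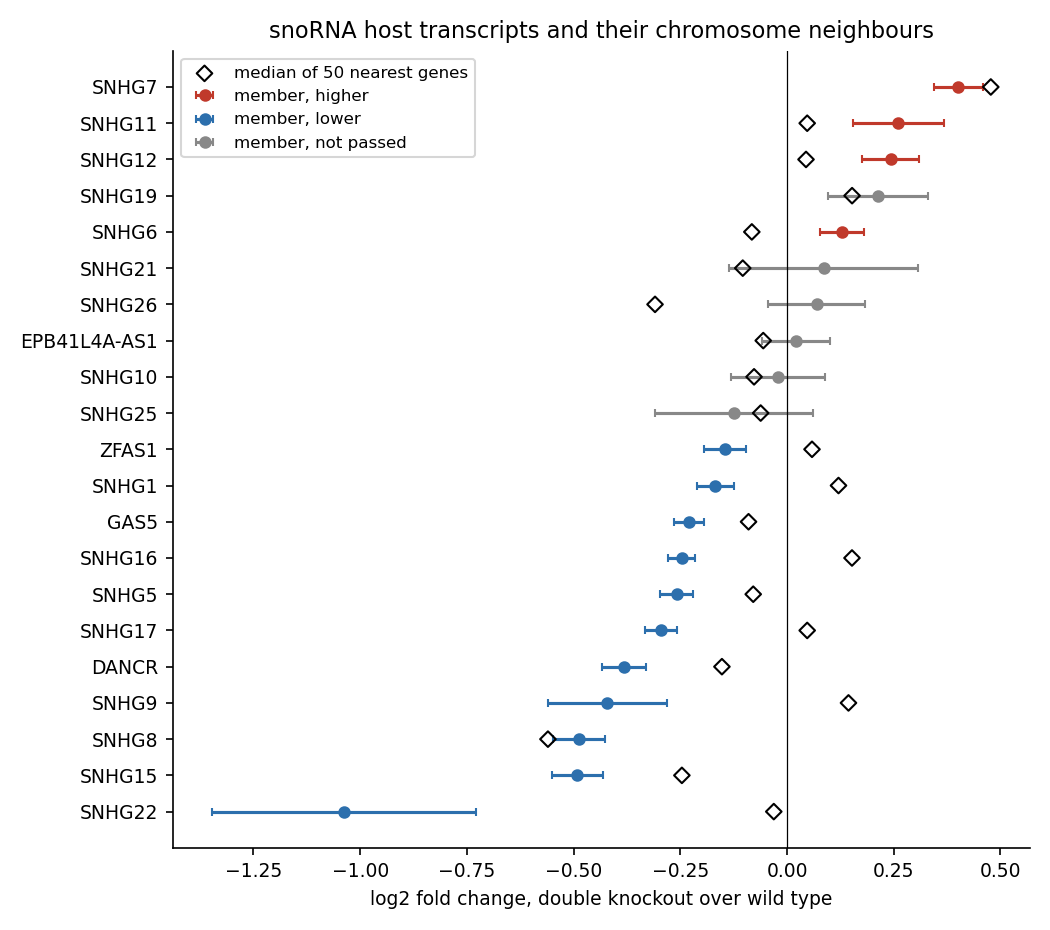
Filled points give the log2 fold change of each tested member (x axis, double knockout over wild type) with its standard error, coloured by call, and open diamonds give the median of the 50 nearest tested genes that are no members. For SNHG8 and SNHG7 the diamond lies near the point, while for SNHG16, SNHG17, SNHG1, SNHG9 and ZFAS1 it lies to the right of 0.

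Several members start beside a gene of the opposite strand, within 1000 bases. The starts of SNHG1 and SLC3A2, a subunit of amino acid transporters, are 188 bases apart, and SLC3A2 fell by 0.22 (SE 0.04, adjusted p = 6.50e-08) beside the 0.17 of SNHG1. SNHG9 starts 99 bases from RPS2, a ribosomal protein gene, which fell by 0.07 (SE 0.03, adjusted p = 0.00880). ZBTB37 beside GAS5 (-0.10, adjusted p = 0.239), ACAA2 beside SNHG22 (-0.06, adjusted p = 0.506), AC015802.4 beside SNHG16 (-0.35, adjusted p = 0.230) and ZNFX1 beside ZFAS1 (0.13, adjusted p = 0.127) did not pass. TRAF7 beside SNHG19 rose by 0.33 (SE 0.05, adjusted p = 7.89e-10), with 0.21 for SNHG19.

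By the snoRNAs they carry per RefSeq, 4 of 7 tested hosts of box C/D snoRNAs alone fell and 1 rose. Of 8 tested hosts of H/ACA snoRNAs alone, 5 fell and 2 rose. Of 3 that carry both kinds, GAS5 fell, SNHG12 rose and SNHG25 did not pass. Of 3 that carry scaRNAs alone, SNHG22 fell and SNHG10 and SNHG21 did not pass. Over all tested genes 28.5% fell and 28.6% rose. Falls and rises thus occurred in hosts of either main class, in groups too small to compare.

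Protein-coding host genes, which carry snoRNAs in the introns of an mRNA, were counted the same way. Of 274 such genes 225 were tested, 107 fell (47.6%), 37 rose (16.4%) and 81 did not pass, with a median of -0.10. With spike-in scaling 109 of these hosts fell and 13 rose. RPS12, a ribosomal protein gene, fell by 0.71 (from 846 ± 39.0 to 516 ± 19.1 CPM, SD, n = 3 each), and WDR17 fell by 0.86 and ETFDH fell by 0.79. Among called hosts with at least 10 CPM in the higher group, PPP1R14C (1.03), FGF12 (0.94) and TBC1D19 (0.65) rose most. Of the 27 tested hosts that encode ribosomal proteins 15 fell and 5 rose, and of the other 198, 92 fell and 32 rose. All 80 tested ribosomal protein genes together had 30 falls and 23 rises, with a median of 0.01. The other long noncoding RNAs, 1515 tested, had 214 falls (14.1%) and 375 rises (24.8%), with a median of 0.10. Levels were not matched between these lists.

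**Figure D4:**
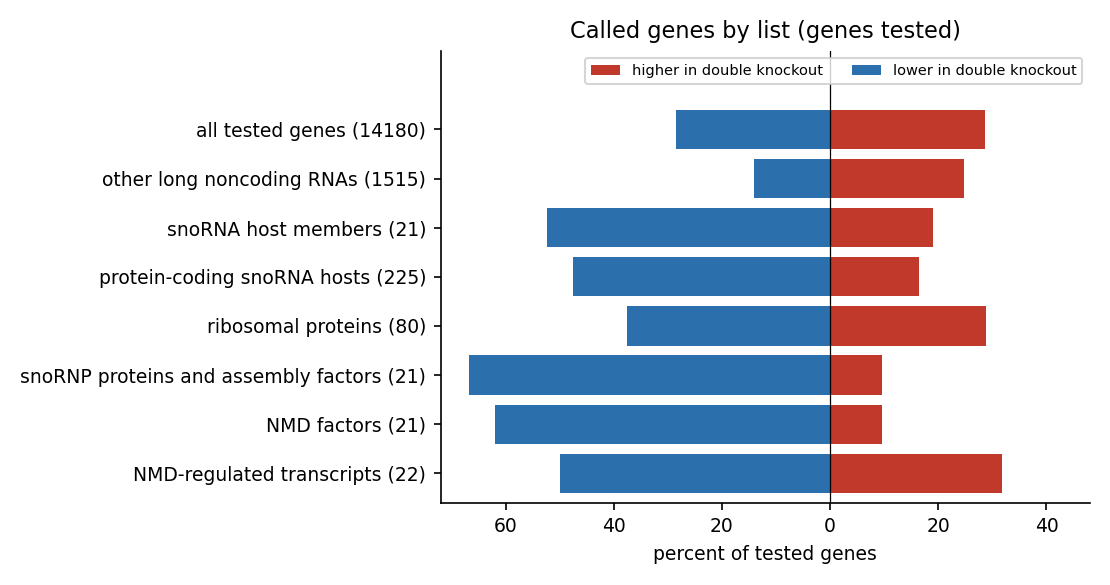
Bars give the percent of tested genes (x axis) called lower (left) and higher (right) in the double knockout for each list, with the number tested in parentheses. Noncoding hosts (52.4% lower, 19.0% higher) and protein-coding hosts (47.6% and 16.4%) lean to the left, all tested genes (28.5% and 28.6%) are even, and other long noncoding RNAs (14.1% and 24.8%) lean to the right. With spike-in scaling the rises fall to 1 noncoding host and 13 protein-coding hosts.

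Transcripts of snoRNP proteins and of the factors that assemble these particles were lower for the most part. Of 21 tested 14 fell (66.7%), 2 rose (9.52%) and 5 did not pass, with a median of -0.17. Over all tested genes 28.5% fell and 28.6% rose. With spike-in scaling none of the list's rises remained called, while over all genes the rises went from 4055 to 2133. Of the box C/D core, the methyltransferase gene FBL fell by 0.38, NOP58 fell by 0.30 and NOP56 fell by 0.16, and SNU13 had -0.08 (adjusted p = 0.0791). Of the H/ACA core, NHP2 fell by 0.42 and GAR1 fell by 0.61, the pseudouridine synthase gene DKC1 rose by 0.12, and NOP10 had 0.05 (adjusted p = 0.472). SHQ1, an assembly factor of H/ACA particles, fell by 1.54 (from 61.4 ± 3.73 to 21.0 ± 0.98 CPM, SD, n = 3 each, adjusted p = 3.22e-60). RUVBL1, an ATPase of snoRNP assembly, fell by 0.65. Several lie in stretches that fell: the neighbours' median was -0.91 at SHQ1, -0.51 at RUVBL1, -0.52 at GAR1, -0.32 at NHP2 and -0.25 at FBL. NOP56 lay in a stretch at 0.08 and DKC1 in one at 0.27. SHQ1, RUVBL1 and NHP2 had the smallest p of the list, and the core proteins are named as whole groups.

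Factors of NMD, the pathway that degrades many spliced hosts, were also mostly lower. Of 21 tested 13 fell (61.9%), 2 rose (9.52%) and 6 did not pass (median -0.19). All tested genes had 28.5% falls and 28.6% rises. UPF2, an adaptor of the central helicase, fell by 0.83, the exonuclease gene XRN1 fell by 0.52 and the helicase gene DHX34 fell by 0.51. UPF1, the central helicase, and RNPS1, a splicing-dependent activator, rose by 0.11 and 0.16. Both rises were not called with spike-in scaling, and 1 of them was called with DESeq2 on the filtered genes. Both were named after their values were seen. UPF2, XRN1 and DHX34 lay in stretches with medians of -0.43, -0.66 and -0.26. The medians at UPF1 and RNPS1 were 0.22 and 0.17.

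Of 22 protein-coding transcripts described elsewhere as raised when NMD is blocked, 7 rose (31.8%), 11 fell (50%) and 4 did not pass (median -0.10). Over all tested genes 28.6% rose and 28.5% fell, so the list's share of rises was near the background and its share of falls above it. With spike-in scaling 4 rose. ATF3 and GADD45A, both stress-response genes, rose by 1.21 and 0.96, and ATF4 fell by 0.38. The called members of that list thus moved in both directions, as did the noncoding hosts.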

How the data were processed

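Per the submitters' processing notes, reads were trimmed with cutadapt 2.10, aligned with STAR 2.7.6a to hg38 and counted with featureCounts, for which no version or settings are on record here. The deposited values are raw read counts per gene. All 58721 gene identifiers matched GENCODE 29. Members and gene lists were chosen with earlier results of these data known. Counts were fitted in R 4.3.3 with edgeR 4.0.16 (filterByExpr with minimum count 10 and minimum total 15, TMM, robust glmQLFit, two-sided glmQLFTest, Benjamini-Hochberg adjustment over all 14180 tested genes, threshold 0.05), after the procedure was tested on simulated data. Positive log2 values mean a higher level in the double knockout. Standard errors are the log2 fold change divided by the root of its F statistic. CPM used TMM-scaled libraries. Exon lengths are unions over GENCODE transcripts. A 0 allows up to 3 counts, for counting error only. Alternatives were DESeq2 1.42.0 (without the low-count filter and, chosen after seeing the data, on the filtered genes), limma 3.58.1 voom, other scalings and filters, a replicate block and left-out libraries. Members called with at least 10 CPM in the higher group, with GAS5, SNHG1, ZFAS1, DANCR and EPB41L4A-AS1, were named with values per library. Of other lists the 3 smallest p-values among called genes were named, and of protein-coding hosts the 3 largest rises and falls with at least 10 CPM. Columns headed HEK293G6 were taken as wild type because no other genotype remained. Promoter sequences are from RefSeq (GRCh38.p14) and snoRNA sequences from GENCODE 29.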

Additional observations from a re-analysis of the deposited data

How the results depend on the processing

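With spike-in scaling, 1 member, 13 protein-coding hosts, 4 NMD-regulated transcripts and 2133 of all genes were called higher, and 0 snoRNP proteins and 0 NMD factors. This scaling rests on few spike-in reads. With DESeq2 without the low-count filter, 2 members and 1 NMD factor were higher. With DESeq2 on the filtered genes, an alternative chosen after seeing the data, the counts were also 2 and 1. With edgeR without the filter 1 NMD factor was higher. The median log2 fold change of the members was -0.26 with spike-in scaling and -0.0931 with total gene counts. The median of all genes was then -0.10 and 0.06. Without the filter the members' median was -0.0867 with edgeR and -0.0939 with DESeq2 (-0.15 with the filter). The unfiltered values include members with few counts that the filter had left out, such as SNHG14. Without the filter the median of all genes was 0.07 with edgeR and 0.08 with DESeq2. After the neighbours' median was subtracted, the members' median was -0.0756. Left-out libraries gave 2 to 5 members higher, 10 to 11 lower, a median of -0.196 to -0.0829 (without double knockout replicates 3 and 1) and 1 to 2 NMD factors higher. Signs turned in members that did not pass: EPB41L4A-AS1 with spike-in scaling (-0.0853) and without replicate 1 of wild type or double knockout (left-out range -0.00838 to 0.0522), SNHG10 with total counts (0.0313), SNHG21 with spike-in scaling (-0.0351) and without replicate 2 of either group (-0.124 to 0.190), SNHG25 without wild type replicate 3 or double knockout replicate 2 (-0.324 to 0.0373), and SNHG26 with spike-in scaling (-0.0477) and without wild type replicate 2 (-0.0365 to 0.126). Against their neighbours SNHG7 turned to -0.0757, SNHG8 to 0.0722 and SNHG10, which did not pass, to 0.0560. The cause was not tested. With the replicate number as a block, 4 members rose and 11 fell (median -0.16), 4054 of all genes rose and 4055 fell, and no count of a list changed by over 1.5 times. Deviations of same-numbered libraries correlated at 0.0106, 0.0166 and 0.0085, so the values showed no sign of pairing. Since replicates varied by only 2.4% beyond counting error, this cannot exclude that libraries were prepared in pairs.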
